A study of Canis lupus familiaris with 23 samples.

Results

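Among 11 canine oral squamous cell carcinomas (COSCC), 4 had expression profiles that correlated better, on average, with canine acanthomatous ameloblastoma (CAA) than with the other 10 carcinomas. These are COSCC replicates 1, 3, 5 and 6, taken from a series of 23 bulk RNA-seq libraries that also holds 5 CAA and 7 healthy gingiva samples. A carcinoma was placed among the 4 when its mean Pearson r with the CAA libraries was higher than its mean r with the other COSCC libraries, both over 15716 genes as log2 CPM, where CPM is a count divided by the library's scaled size. Expression itself therefore chose the grouping, and the other 7 carcinomas (replicates 2, 4, 7, 8, 9, 10 and 11) form the comparison. No p-value is given for any expression difference between the 4 and the 7, because every gene of these libraries entered the choice. Differences are described by their values, by whether the ranges of the groups overlap, and by the share of all tested genes that meet the same criterion.

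All samples are oral tissue from dogs with no treatment named. The labels give tissue, jaw, breed and a two-letter code (FS or MC, left unexplained), but no age, tumor stage or histological grade. The jaw is undetermined in every gingiva sample except replicate 1 (maxilla). The 4 carcinomas came from 2 mixed-breed dogs (replicates 1 and 5), an Alaskan Malamute (replicate 3) and a Dachshund (replicate 6). Among the 7, 2 dogs were mixed-breed and 2 were Labrador Retrievers, with a Labradoodle, a Yorkshire Terrier and a Boxer making up the rest. CAA came from an Australian Shepherd (replicate 1), Labrador Retrievers (2 and 5), a Boxer (3) and a Great Dane (4). Gingiva came from mixed-breed dogs (replicates 1, 5 and 6) and Labrador Retrievers (4 and 7). Gingiva replicates 2 and 3 came from a Staffordshire Bull Terrier and a Catahoula Leopard Dog. The library name of replicate 6 holds 2 numbers, and whether it stands for pooled material was not stated, so it was taken as 1 sample. Nothing in the labels says outright that each sample is a separate animal.

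COSCC arises from the stratified squamous lining of the mouth, whose cells keratinize as they mature, and it invades bone and can spread. CAA is an odontogenic tumor, built of islands of epithelium that resemble the enamel organ of the developing tooth. It invades the jaw locally but is not known to metastasize. Activating mutations of the Ras-Raf-MAPK signalling chain have been described in CAA and its human counterpart. A piece of either tumor also contains stroma, vessels, immune cells and sometimes bone or muscle. In such bulk samples, fewer cells of a type and less RNA per cell cannot be told apart.

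The tumor labels could not be checked against marker genes. The deposited table names genes by Ensembl dog identifiers only, and 0 of them occur in the RefSeq gene table used for names. The files thus do not pair identifiers with symbols, and no gene can be given a function, position or sequence. Keratin, enamel-matrix, stromal and immune marker lists were not used for that reason. The results below concern libraries, counts of genes and 8 identifiers chosen by rule.

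Total counts ran from 15120326 to 16813220 over the 23 libraries. They averaged 15780064 ± 227791 in the 4 carcinomas (SD, n = 4) and 15859211 ± 464061 in the 7 (SD, n = 7), a difference within the spread (exact two-sided permutation test, p = 0.824, 330 splits). The limit of detection was taken as 3 counts, which corresponds to 0.191 CPM at the median total. That limit takes in counting error alone, because without molecular identifiers several reads can come from 1 molecule. No pair of the 11 COSCC libraries looked like a repeat of 1 library, the mean chi-square per gene being at least 67.7 in all 55 pairs.

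The clinical labels were not used in choosing the 4 and could be tested. The mandible was the source of 2 of the 4 carcinomas (replicates 3 and 5) and of 2 of the 7 (Fisher's exact test, two-sided, p = 0.576). The odds ratio was 2.29 with a 95% confidence interval from 0.0986 to 58.1. Code MC was carried by 2 of the 4 and 3 of the 7 (Fisher's exact test, p = 1). Mixed breed gave the same counts as the jaw, 2 of 4 against 2 of 7 (Fisher's exact test, p = 0.576). In the 4, the mixed-breed dogs were replicates 1 and 5, not the same pair as the mandibular ones. After Benjamini-Hochberg adjustment over the 4 tests, including that of total counts, every p was 1. With so few dogs the interval is too wide to show that jaw, code or breed are alike in both sets.

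The values that chose the 4 were close together. COSCC replicate 5 had a mean r of 0.901 with CAA and 0.865 with the other carcinomas, a margin of 0.0357. Replicate 3 had 0.853 with CAA and 0.818 with the other carcinomas, a margin of 0.0349. For replicate 6 the pair was 0.881 and 0.854, a margin of 0.0276. Replicate 1 was just inside the threshold, at 0.864 with CAA and 0.861 with the other carcinomas, a margin of 0.00329. Just outside it was replicate 7, at 0.866 with CAA and 0.879 with the other carcinomas, a margin of -0.0133. The membership of replicate 1 was thus set by a difference smaller than any other in the 11 libraries. It was lost without CAA replicate 1 (margin -1.39e-05), without CAA replicate 4 (-0.000968) and on the 1000 most variable genes (-0.0524). It was also lost when the 7 other carcinomas alone served as the reference, where its r was 0.865 with the 7 against 0.864 with CAA. Replicate 7 joined the set without CAA replicate 5, with a margin of 0.00135.

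**Figure D1:**
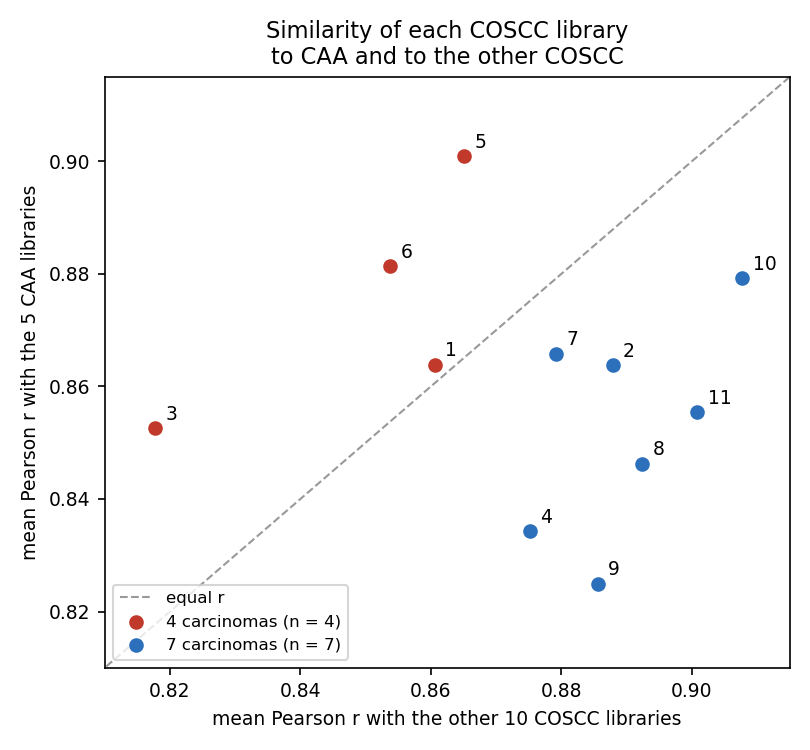
Each point is a COSCC library, labelled with its replicate number, with its mean Pearson r with the other COSCC libraries on the x axis and with the CAA libraries on the y axis (log2 CPM, 15716 genes). Points above the dashed line of equal r are the 4 carcinomas; replicate 1 lies almost on it, and replicates 7 and 10, below it, lie higher on the CAA axis than replicates 1 and 3.

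The label of ameloblastoma-like carcinomas held only in part. In absolute terms the 4 were not the carcinomas closest to CAA. Replicates 5 and 6 had the highest r with CAA of all 11, but replicate 10 (0.879) and replicate 7 (0.866), both outside the set, exceeded replicates 1 and 3. What the 4 shared completely was a low r with other carcinomas. Their values of 0.818 to 0.865 were the lowest of the 11, and the 7 ran from 0.875 to 0.908. Both terms belong to the rule, so these values describe it and test nothing. The set is called the 4 carcinomas in what follows.

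The 4 were hardly closer to each other than to the 7. Their 6 mutual correlations averaged 0.853 (range 0.837 to 0.872), whereas the 21 among the 7 averaged 0.918 (0.864 to 0.966). Between the sets the mean of 28 correlations was 0.848, close to the value within the 4. With the CAA libraries the 4 averaged 0.875 over 20 pairs and the 7 averaged 0.853 over 35 pairs. With gingiva the order was the opposite, 0.827 for the 4 over 28 pairs and 0.873 for the 7 over 49 pairs. For comparison, pairs within CAA averaged 0.930 and pairs within gingiva 0.945. The rule averaged these same correlations among carcinomas and with CAA, so the means describe the choice and test no grouping.

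Replicates 5 and 6 had similar neighbours, while replicates 1 and 3 each had others. Replicate 6 was closest to CAA replicate 4 (r = 0.917), and 4 of the 5 CAA libraries correlated with it better than any carcinoma did. Replicate 5 was also closest to CAA replicate 4 (r = 0.916), again with 4 of the 5 CAA libraries above its best carcinoma. Such values also occurred outside the set, since COSCC replicates 8 and 10 both had r = 0.914 with CAA replicate 4. Replicate 3 was closest to CAA replicate 2 (r = 0.861), and 2 CAA libraries lay above its best carcinoma. Replicate 1 was closest to COSCC replicate 10 (r = 0.888), one of the 7, and no CAA library came above that. For replicates 1 and 5, 3 of the 7 carcinomas correlated better than the best of the other members did. Replicates 5 and 6 thus resembled CAA libraries most, replicate 3 resembled no library closely, and replicate 1 was nearest to a carcinoma outside the set.

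**Figure D2:**
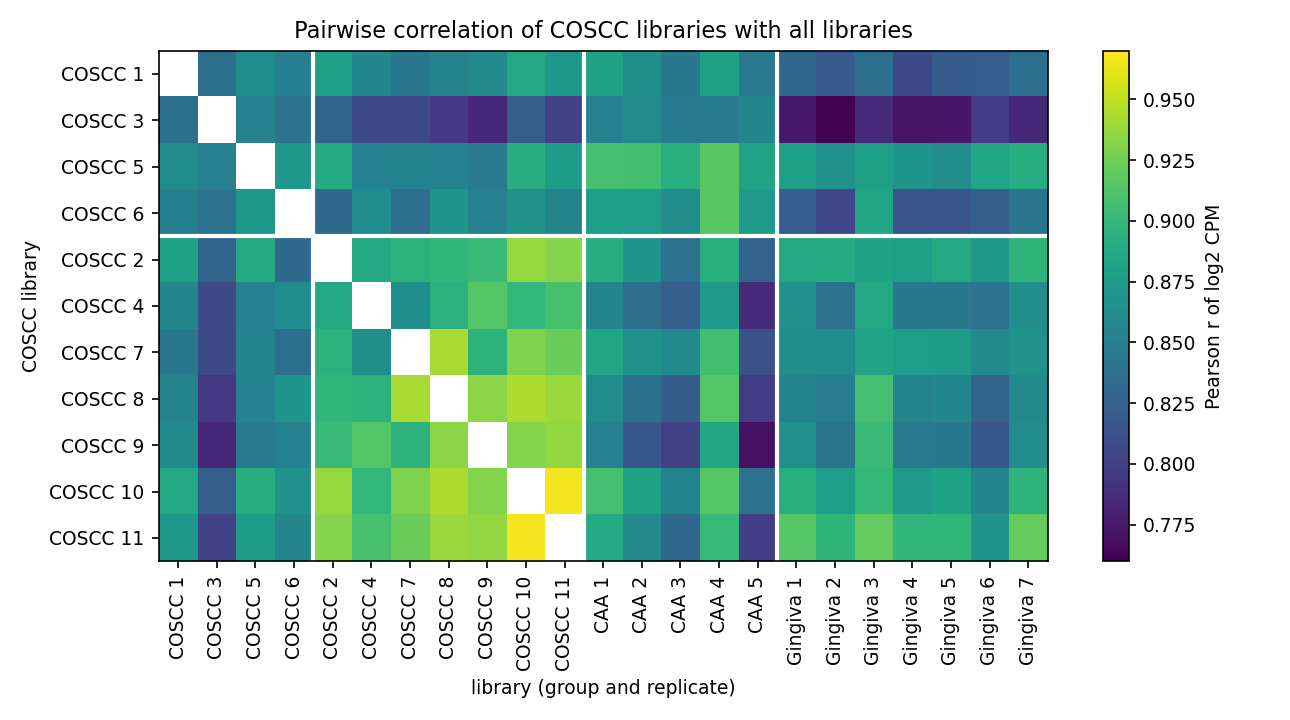
Colors give the Pearson r of log2 CPM between each COSCC library (rows) and all 23 libraries (columns), with white lines between the 4 carcinomas, the 7, CAA and gingiva, and white cells on the diagonal. The block of the 7 is the brightest among carcinomas (mean 0.918), the block of the 4 is not brighter than the area between the sets (0.853 and 0.848), and the row of COSCC replicate 3 is dark against gingiva.

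Distance from gingiva differed among the 4 as well. Mean r with the 7 gingiva libraries was 0.778 in replicate 3, 0.825 in replicate 1, 0.830 in replicate 6 and 0.876 in replicate 5. In the 7 carcinomas it ran from 0.855 to 0.903 with a median of 0.870. Replicates 1, 3 and 6 lay below all of the 7, and replicate 5 lay within their range. All 4 had a higher mean r with CAA than with gingiva, by 0.0247 (replicate 5) to 0.0746 (replicate 3). In each of the 7 the reverse held, with differences from -0.0470 to -0.00308. Correlations with gingiva took no part in the rule, although the gingiva libraries entered the gene filter and the scaling. Mean r with CAA is itself a term of the rule, and the carcinoma values are the same ones the rule used.

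Genes set to an extreme by a single library were counted in all 11 carcinomas. COSCC replicate 3 had 177 genes at least 4-fold above every other carcinoma and 76 at least 4-fold below. Replicate 6 had 116 above and 5 below, replicate 1 had 87 and 31, and replicate 5 had 73 and 5. Among the 7, the number above ran from 1 (replicate 10) to 25 (replicate 4), so that each of the 4 exceeded all of the 7. The number below ran from 0 to 84 in the 7, where replicate 7 had the most, and the sets overlapped. Correlation with the other carcinomas, a term of the rule, is computed from the same values, so these counts are a description.

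**Figure D3:**
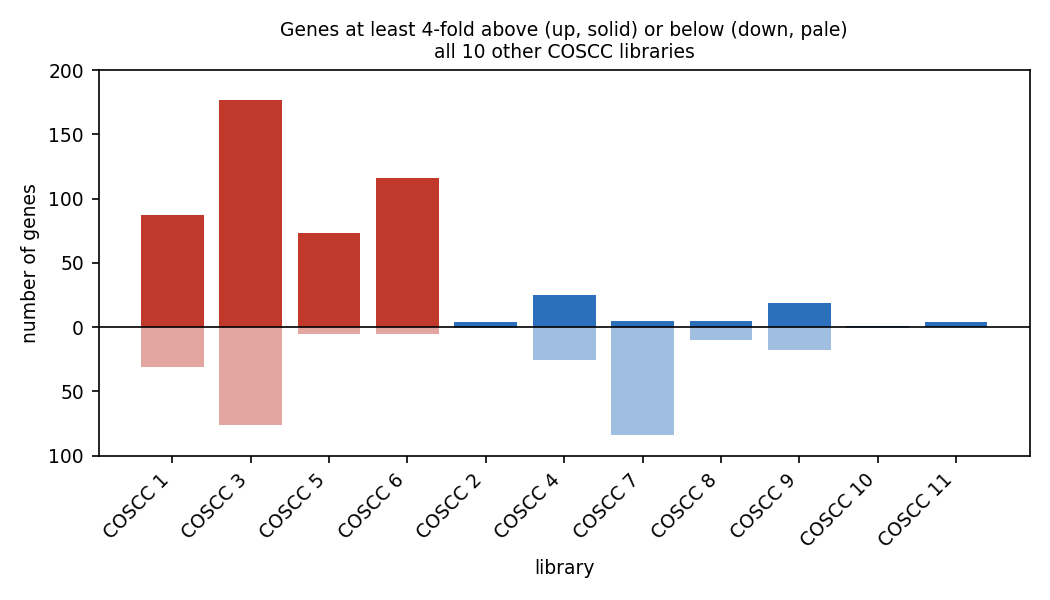
Bars count, for each COSCC library, the genes whose log2 CPM was at least 2 above (upward, solid) or below (downward, pale) that of all 10 other carcinomas, with the 4 carcinomas in red and the 7 in blue. Upward bars of the 4 reach 73 to 177 genes and those of the 7 reach 1 to 25; the tallest downward bars are those of replicate 7 (84) and replicate 3 (76).

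General properties of the libraries differed in part between the sets, with ranges that overlapped. Genes with at least 1 count numbered 20323, 20823, 20083 and 19329 in replicates 1, 3, 5 and 6. In the 7 they ran from 17831 to 19671 (median 18861), so that 3 of the 4 lay above all of the 7. The 10 most abundant genes took 8.78% to 13.1% of counts in the 4 and 10.7% to 20.3% in the 7. The TMM factor, which corrects library size for composition, was 1.01 to 1.3 in the 4 and 0.761 to 1.12 in the 7. Replicate 6 lay within the range of the 7 in each of these measures. The part of these properties in the differences below was not tested.

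The 4 carcinomas were then compared with the 7 gene by gene. A gene was counted when the CPM ranges of the sets did not overlap and the mean log2 CPM (prior count of 2) differed by at least 1, that is 2-fold. Of 15716 genes, 556 (3.54%) were higher in the 4 and 245 (1.56%) were lower, 801 in all (5.10%). The grouping was drawn from these same values, so the counts describe the sets and nothing is read from their size. The median difference over all tested genes was 0.05 on the log2 scale. With counts scaled by library totals alone that median was 0.28, a shift of the whole distribution. Of the genes past the criterion, 69.4% were higher in the 4 under TMM and 84.3% under library totals, where 144 were lower.

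Single libraries bounded these counts. Without COSCC replicate 1 the total was 1234 genes, and 767 of the 801 were among them. The number of lower genes, 245 with all libraries, was 443 without replicate 4, 404 without replicate 1, 391 without replicate 6 and 373 without replicate 5. A range over fewer libraries is narrower by construction, so counts without a library tend upward. Within the mandible, 2 carcinomas against 2, 2974 genes (18.9%) met the criterion. Within the maxilla, 2 against 5, the count was 2427 (15.4%). It was 2706 (17.2%) within code FS and 2477 (15.8%) within code MC. Of the 801 genes, 699 and 749 met it within the mandible and the maxilla, and 753 and 714 within FS and MC. Because ranges that are apart over all 11 carcinomas are also apart in any part of them, only the 2-fold minimum could fail there.

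Genes higher in the 4 were mostly weakly expressed in the 7. Their median over genes of the mean log2 CPM was 3.18 in the 4, 0.73 in the 7, 2.86 in CAA and 1.34 in gingiva. The median difference between the sets was 2.07 on the log2 scale (quartiles 1.54 and 2.85). At least 4-fold differences were seen in 297 of the 556 genes, at least 8-fold in 119 and at least 16-fold in 53. In 37 of the 556 none of the 7 carcinomas had more than 3 counts, so that the gene was at or below the limit of detection throughout that set. In 175 each of the 4 carcinomas had at least 10 CPM. Library by library, the 556 genes together took 1.58%, 2.52%, 1.44% and 1.51% of all counts in replicates 1, 3, 5 and 6. In the 7 they took 0.276% to 0.457%. CAA libraries held 1.07% to 2.06% and gingiva libraries 0.486% to 0.903%.

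Genes lower in the 4 were moderately to well expressed in the 7. Their median mean log2 CPM was 3.78 in the 4, 5.58 in the 7, 3.51 in CAA and 4.77 in gingiva. The median difference was -1.51 on the log2 scale (quartiles -1.996 and -1.27), smaller in size than among the higher genes. At least 4-fold differences were seen in 61 of the 245 genes, at least 8-fold in 20 and at least 16-fold in 7. In 2 of the 245 each of the 4 had at most 3 counts, and in 191 each of the 7 had at least 10 CPM. The 245 genes took 1.39%, 1.27%, 1.43% and 1.53% of counts in replicates 1, 3, 5 and 6, a narrow range, and 3.19% to 4.31% in the 7. CAA libraries held 1.13% to 2.19% and gingiva libraries 1.86% to 2.88%. For both lists, CAA lay close to the 4. Gingiva lay between the sets in both lists.

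**Figure D4:**
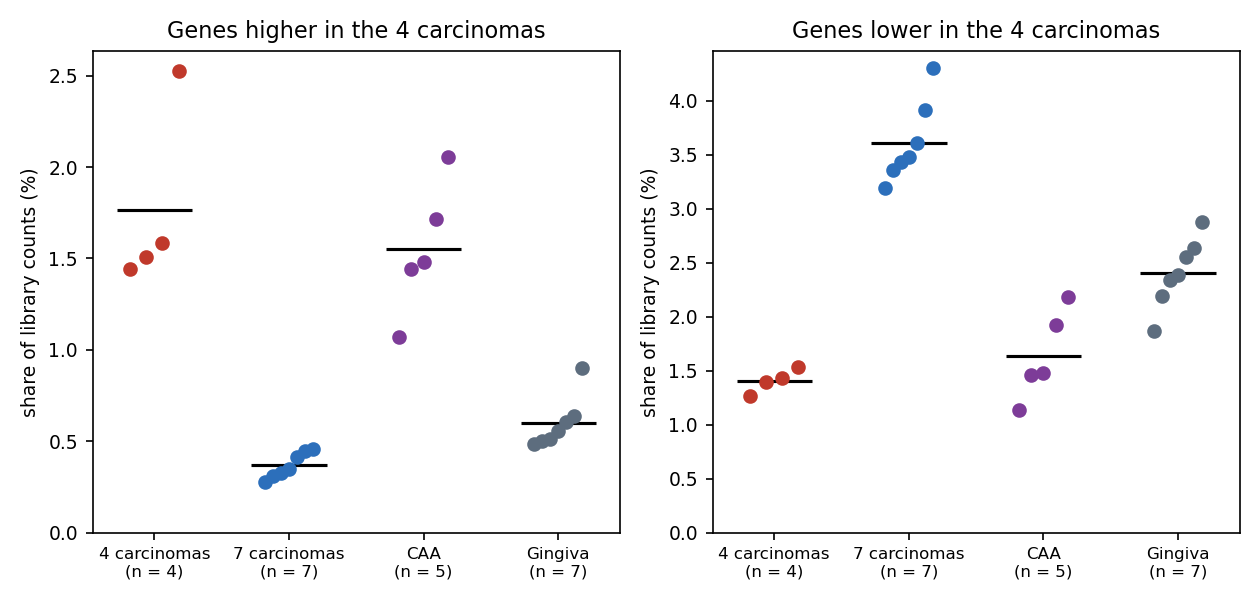
Each point is a library and gives the share of its counts (%) that fell in the 556 genes higher (left) or the 245 genes lower (right) in the 4 carcinomas than in the 7; black lines are group means. The 4 and the 7 are apart because the genes were chosen so; CAA overlaps the 4 in both panels, at 1.07% to 2.06% and 1.13% to 2.19%, while gingiva lies at 0.486% to 0.903% and 1.86% to 2.88%.

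A comparison of CAA with gingiva, which uses no carcinoma library, was set beside these lists. The criterion for CAA above gingiva was met by 1142 of 15716 genes (7.27%) and that for CAA below gingiva by 705 (4.49%). Among the 556 genes higher in the 4 carcinomas, 186 (33.5%) were above gingiva in CAA and 2 (0.360%) were below. These 186 were 16.3% of the 1142. Among the 245 genes lower in the 4, 46 (18.8%) were below gingiva in CAA, which is 6.52% of the 705, and 1 was above. The median difference between CAA and gingiva was 1.37 on the log2 scale in the 556 genes, -1.003 in the 245 and 0.05 over all genes. Likeness to CAA relative to the other carcinomas chose the 4, so these shares describe how the choice appears gene by gene.

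The members of the set did not contribute equally. In the 556 higher genes, the lowest of the 4 was replicate 1 in 190, replicate 5 in 179, replicate 6 in 111 and replicate 3 in 76. Replicate 3 therefore carried the higher genes furthest and replicates 1 and 5 set the lower edge. In the 245 lower genes the highest of the 4 was shared almost evenly, with 64 for replicate 5, 63 each for replicates 1 and 6, and 55 for replicate 3. On the other side, replicate 2 was the top of the 7 in 152 of the higher genes, followed by replicate 4 in 115. Replicate 9 was the top in 39, the fewest. The bottom of the 7 in the lower genes was most often replicate 4 (68), replicate 7 (60) or replicate 2 (54), and least often replicate 8 (7). Replicates 2 and 4 were thus often the nearest to the 4 in both lists, as was replicate 7 in the lower genes. Of the 7, replicates 2 and 4 are the only mandibular carcinomas and also the only mixed-breed ones. Jaw and mixed breed cannot be told apart among the 7.

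Spread within the 4 was slightly wider than within the 7. The median SD of log2 CPM over all tested genes was 0.59 in the 4, 0.54 in the 7, 0.44 in CAA and 0.48 in gingiva. In the 556 higher genes the corresponding values were 0.69, 0.65, 0.62 and 0.67. In the 245 lower genes they were 0.54, 0.45, 0.78 and 0.52, so that the spread there was widest in CAA.

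Among genes whose mean reached 10 CPM in the higher set, ENSCAFG00000019958 had the largest difference in favour of the 4. It had 63.2 CPM in replicate 1, 77.5 in replicate 3, 2.79 in replicate 5 and 4.48 in replicate 6. In the 7 carcinomas it had 0 to 0.138 CPM, at most 2 counts in a library and 8 counts over all 7. Replicates 1 and 3 were high and replicates 5 and 6 far lower, but all 4 were above all of the 7. The mean log2 difference was 6.39 ± 1.25 (SE, n = 4 and 7). Sets and identifiers were both chosen from these values, so this SE and those below describe scatter between libraries. They do not measure how precise a difference is. With so few counts in the 7 the size of the difference depends on the prior count, being 7.52 with a prior of 0.5 and 5.42 with a prior of 5. CAA had 1.02 to 6.30 CPM (median 2.93) and gingiva 0.0707 to 2.40 (median 0.295), so that replicates 1 and 3 exceeded every CAA library as well.

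ENSCAFG00000005766 followed, with the members in another order. It had 2.82 CPM in replicate 1, 17.8 in replicate 3, 42.2 in replicate 5 and 54.3 in replicate 6. The 7 had 0 to 0.573 CPM, at most 9 counts in a library. Replicates 5 and 6 were highest here and replicate 1 lowest, and the sets did not overlap. The mean log2 difference was 6.34 ± 1.04 (SE, n = 4 and 7), again dependent on the prior count (7.52 with 0.5 and 5.42 with 5). CAA had 2.90 to 27.4 CPM and gingiva 0 to 0.283 CPM, so the gene met the criterion for CAA above gingiva too. The 4 carcinomas lay within or above the range of CAA except replicate 1, which was just under it.

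ENSCAFG00000013297 had the largest difference in favour of the 7. It had 0.733 CPM in replicate 1, 0.341 in replicate 3, 0.581 in replicate 5 and 1.55 in replicate 6. The 7 carcinomas had 10.4 to 58.5 CPM with a median of 37.5, lowest in replicate 4 and highest in replicate 2. All of the 7 lay well above the 4, by a mean log2 difference of -5.10 ± 0.52 (SE, n = 4 and 7; 4 minus 7). Gingiva had 0.261 to 4.19 CPM (median 0.784), a range that contains the 4. Mean log2 differences from gingiva were 4.76 in the 7 and -0.35 in the 4. CAA had 0.378 to 14.5 CPM with a median of 0.892, its highest value coming from CAA replicate 2.

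ENSCAFG00000025462 was next among the lower genes. It had 24.1 CPM in replicate 1, 7.61 in replicate 3, 9.06 in replicate 5 and 20.8 in replicate 6. The 7 had 115 to 815 CPM with a median of 307, and no value of the 4 reached that range. The mean log2 difference was -4.55 ± 0.59 (SE, n = 4 and 7; 4 minus 7). Gingiva had 0.739 to 92.02 CPM and CAA 1.18 to 109 CPM, both spanning the values of the 4 and both below every one of the 7. For both lower identifiers the 7 carcinomas, and not the 4, were the set apart from healthy gingiva.

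Each set was next placed against healthy gingiva and CAA by the same criterion. Between the 4 carcinomas and gingiva, 1725 genes met it, 1050 (6.68%) higher and 675 (4.29%) lower. Between the 7 and gingiva 781 genes did, 322 (2.05%) higher and 459 (2.92%) lower. Ranges of 4 libraries separate more readily than ranges of 7, so these counts are not on equal terms. The SD of the mean log2 differences over all genes was 1.25 for the 4 against gingiva and 1.08 for the 7. Under library totals, higher genes made up 83.7% of those meeting the criterion in the 4 and 62.0% in the 7, against 60.9% and 41.2% under TMM, and the all-gene medians were 0.42 and 0.13 against 0.07 and 0.02. The direction of the majority in the 7 thus depended on the scaling.

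Against CAA the order was the opposite. Between the 4 carcinomas and CAA 370 genes met the criterion, 182 (1.16%) higher and 188 (1.20%) lower. Between the 7 and CAA 1406 genes did, 433 (2.76%) higher and 973 (6.19%) lower. Likeness to these CAA libraries, relative to the other carcinomas, chose the 4. The rule and these counts therefore share the same values, and nothing is read from this order. The SD of the mean log2 differences was 0.78 for the 4 against CAA and 1.16 for the 7, and 1.02 between the 4 and the 7. Leaving out members raised the count for the 4 against CAA to 584 without replicate 3, 654 without replicate 6 and 723 without replicate 5. Under library totals the share of higher genes among those separating the 7 from CAA was 18.1% against 30.8% under TMM.

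Among genes separating the 4 from gingiva but not the 7 from gingiva, ENSCAFG00000023446 had the largest rise. It had 57.4, 18.2, 1.45 and 63.9 CPM in replicates 1, 3, 5 and 6. The 7 carcinomas had 0 to 0.733 CPM and gingiva 0 to 0.174 CPM, at most 2 counts in a library. Replicate 5 was by far the lowest of the 4 and still above all of the 7 and all gingiva libraries. Mean log2 differences from gingiva were 6.58 ± 1.26 in the 4 (SE, n = 4 and 7), 0.66 in the 7 and 6.70 in CAA. CAA had 12.03 to 48.04 CPM. The sizes depend on the prior count, given the few counts in gingiva. The gene was also among the 556 higher in the 4 than in the 7.

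ENSCAFG00000003369 was second and far more uneven. It had 18.4, 465, 29.4 and 5683 CPM in replicates 1, 3, 5 and 6, the last being 91408 counts. The 7 carcinomas had 0.276 to 156 CPM with a median of 1.58, and replicates 2 (156 CPM) and 10 (52.9 CPM) overlapped the 4. Gingiva had 0.295 to 5.49 CPM and CAA 27.3 to 649 CPM. Mean log2 differences from gingiva were 6.57 ± 2.001 in the 4 (SE, n = 4 and 7), 0.96 in the 7 and 5.53 in CAA. Between the 4 and the 7 the ranges overlapped, so this gene was not among the 556.

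The largest falls from gingiva showed the same unevenness. ENSCAFG00000011163 had 573 to 2935 CPM in gingiva (median 2648) and 0.338, 3.32, 105 and 201 CPM in replicates 1, 3, 5 and 6. The 7 carcinomas had 0.718 to 996 CPM with a median of 10.1, and CAA 2.10 to 64.9 CPM. Mean log2 differences from gingiva were -7.25 ± 2.10 in the 4 (SE, n = 4 and 7), -6.79 in the 7 and -7.99 in CAA. The 7 missed the criterion only because COSCC replicate 11 (996 CPM) exceeded gingiva replicate 6 (573 CPM). Between the 4 and the 7 the mean log2 difference was -0.47 ± 2.54 (SE, n = 4 and 7), and the ranges overlapped.

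ENSCAFG00000043606 had 105 to 490 CPM in gingiva (median 188) and 0.451, 0.0488, 16.2 and 5.22 CPM in replicates 1, 3, 5 and 6. Replicate 3 had a single count. The 7 carcinomas had 1.69 to 141 CPM with a median of 35.5, and replicates 2 and 11 reached into the gingiva range. Mean log2 differences from gingiva were -6.91 ± 1.51 in the 4 (SE, n = 4 and 7), -3.61 in the 7 and -6.61 in CAA. Between the 4 and the 7 the ranges overlapped.

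**Figure D5:**
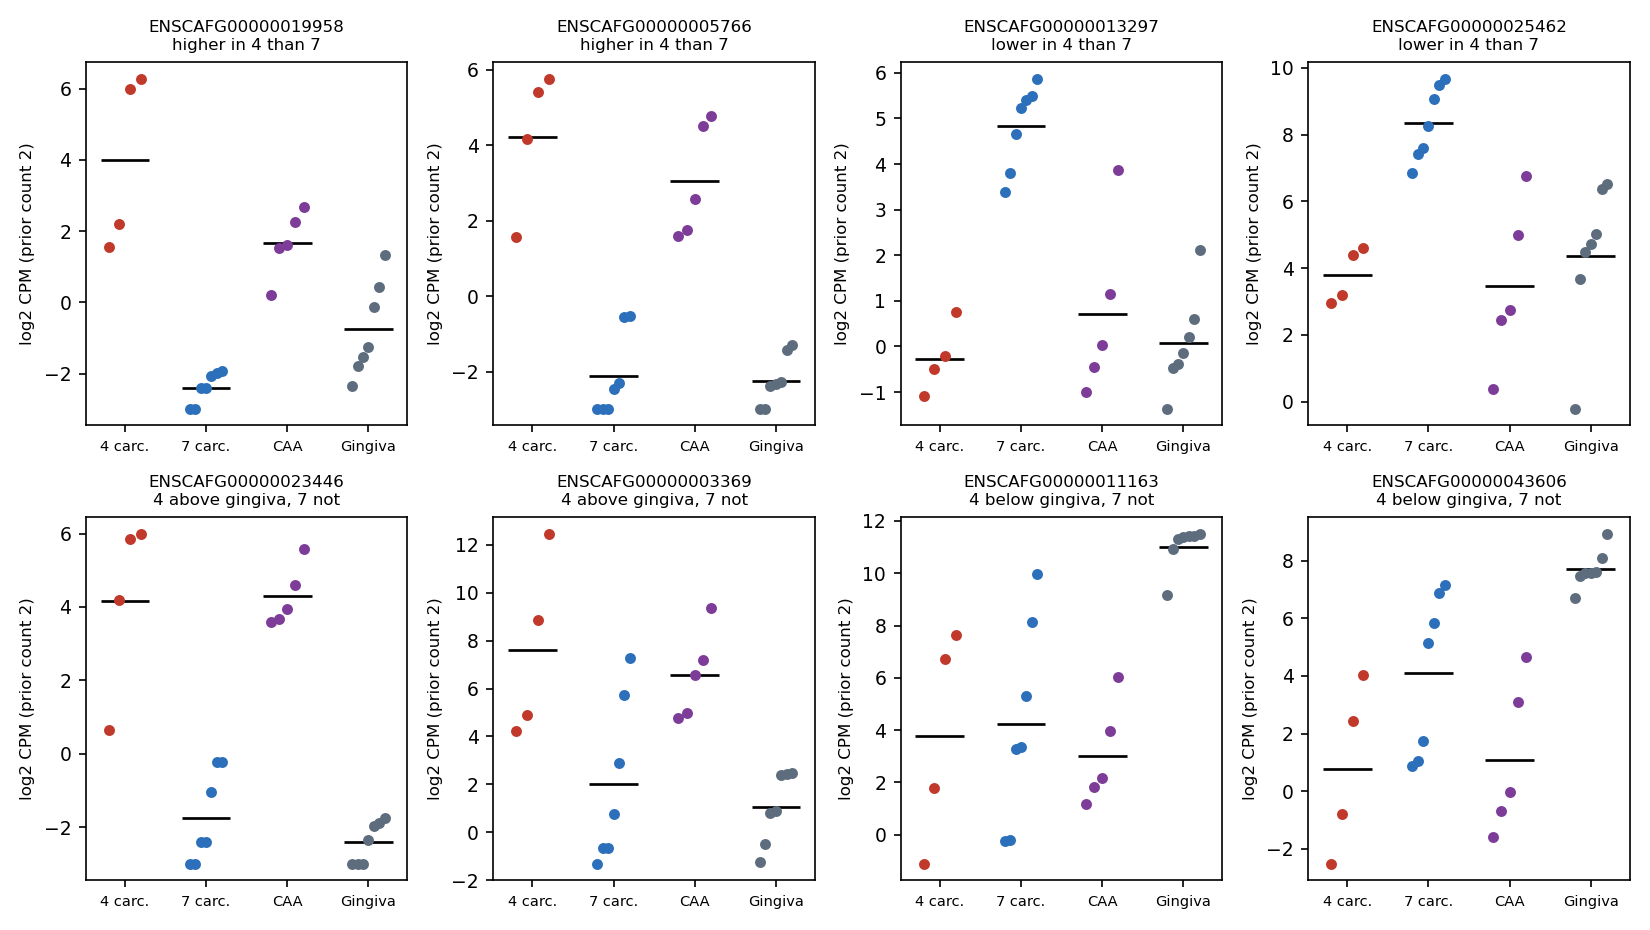
Each panel shows an identifier, with a point per library for the log2 CPM (prior count of 2) in the 4 carcinomas, the 7 carcinomas, CAA (n = 5) and gingiva (n = 7), and black lines for means. The upper row holds the largest differences between the 4 and the 7, whose points do not overlap; the lower row holds the largest differences of the 4 from gingiva, where ENSCAFG00000003369, ENSCAFG00000011163 and ENSCAFG00000043606 overlap between the carcinoma sets.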

How the data were processed

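Total RNA was depleted of ribosomal RNA and made into directional libraries, per the labels' protocols. The authors deposited raw counts per Ensembl dog gene for 30951 genes. STAR and the build canFam3 are named in the submitters' processing notes, without versions. The counting program, the use of strand and the annotation release are not given in the sources used here, so reads of overlapping or near-identical genes may be divided in an unknown way. Library names tied every column to its sample (0 left over).

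Counts were filtered with filterByExpr by group and scaled by TMM in edgeR 4.0.16 (R 4.3.3), leaving 15716 genes with 99.9% of counts. No count model was fitted, because the grouping came from expression. Mean log2 CPM used a prior count of 2, and standard errors come from the SD of each set. Because sets and identifiers were chosen from the same values, the standard errors describe scatter only. Labels were compared with Fisher's exact test and total counts by exact permutation. The procedure was run on simulated counts in which the members and CAA shared the same planted changes. That run checks the code only and does not bear on the membership found here. Identifiers were named by size of difference, 2 per direction and comparison, from genes past the criterion with at least 10 CPM in the higher set. The members and lists were chosen with earlier results of these data known. Gene lists by symbol were not analysed here. Alternatives covered scaling, filters, prior count, correlation measure, single jaws and codes, and leaving out libraries. P-values concern only the labels and total counts of these samples and measure no expression difference.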

Additional observations from a re-analysis of the deposited data

Results flagged for a closer look

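A sample far from the rest of its set was looked for in 44 sets of values (6 library measures in the 4 and the 7 carcinomas, and the 8 identifiers in these sets, CAA and gingiva). For the identifiers the values were CPM and not log2 CPM. The gap exceeded the 95% limit of Dixon's test in 11 sets. About 2.2 would do so by chance if values were normally distributed. CPM values are skewed toward high values, so that figure is no fair yardstick for the identifiers. The sets are not independent, and the identifiers were chosen for extreme differences. Among the 4 carcinomas the only such value was 5683 CPM of ENSCAFG00000003369 in COSCC replicate 6, against 465 CPM in the next member. As log2 CPM that gene had 4.21, 8.86, 4.88 and 12.47 in replicates 1, 3, 5 and 6, a more even spacing. Among the 7 the flagged values were a total of 16813220 counts in COSCC replicate 8, 156 CPM of ENSCAFG00000003369 in replicate 2 and 996 CPM of ENSCAFG00000011163 in replicate 11.

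In CAA the values were 14.5 CPM of ENSCAFG00000013297 in CAA replicate 2, 109 CPM of ENSCAFG00000025462 and 64.9 CPM of ENSCAFG00000011163 in CAA replicate 4, and 649 CPM of ENSCAFG00000003369 in CAA replicate 5. In gingiva they were 4.19 CPM of ENSCAFG00000013297 and 573 CPM of ENSCAFG00000011163 in gingiva replicate 6, the latter the lowest of its group, and 489.6 CPM of ENSCAFG00000043606 in gingiva replicate 2.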

How the results depend on the processing

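The similarity rule found 3 to 5 carcinomas under 26 alternatives, one of them (the 7 carcinomas alone as reference, 3 members) chosen after seeing the data. Leaving out a COSCC library changed the membership of no remaining carcinoma, so the 3 found without a member are the other members. Leaving out a CAA library gave 3 to 5. COSCC replicate 1 was lost without CAA replicate 1 or 4, and COSCC replicate 7 was gained without CAA replicate 5. Of genes differing between the 4 and the 7, 801 in all, 556 higher and 245 lower, library totals gave 144 lower and no minimum difference gave 440 lower. A minimum of 2 on the log2 scale gave 358 in all, 297 higher and 61 lower. Higher and lower genes numbered 1829 and 1145 in the mandible (2974 in all), 1467 and 960 in the maxilla (2427), 1658 and 1048 in code FS (2706), and 1543 and 934 in code MC (2477), where fewer libraries make ranges easier to separate. Leaving out a carcinoma gave 823 to 1234 in all, 555 to 830 higher and 256 to 443 lower. Leaving out a member gave 1983 to 2404 genes for the 4 against gingiva and 534 to 723 for the 4 against CAA, and for the 7 it gave 779 to 781 and 1386 to 1403. All 8 identifiers kept their direction, with changes below the SD of the 4, in 23 alternatives for the 4 between carcinoma sets and 7 for the 4 against gingiva. They were chosen for ranges that do not overlap, so their direction was all but fixed in advance. That SD is also a loose limit, being 4.14 on the log2 scale for ENSCAFG00000011163, whose difference from gingiva ran from -8.55 to -5.63. No paired analysis was possible because the results between the sets come from no test and the 4 and the 7 share no replicate number. Identifiers with at most a few counts in a set have no reliable fold size.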

Other observations

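CAA replicate 4, the closest library to COSCC replicates 5 and 6, was itself the CAA library nearest to carcinomas. Its mean r was 0.890 with the 4 carcinomas and 0.898 with the 7, whereas CAA replicate 5 had 0.865 with the 4 and 0.804 with the 7. The difference between mean r with CAA and with COSCC was 0.0315 in CAA replicate 4, below the margins of COSCC replicates 3 (0.0349) and 5 (0.0357). Gingiva replicate 6 also had a higher r with CAA than with COSCC, by 0.0327, where the other gingiva libraries ran from -0.0260 to 0.00282. It held 0.903% of its counts in the genes higher in the 4 carcinomas, the highest share in gingiva. COSCC replicates 10 and 11 were the most similar pair of carcinomas (r = 0.966).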
